A study of Mus musculus with 4 samples.

Results

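The genes of mitosis and the spindle, 40 in number, were examined in a cultured line of mouse aortic endothelial cells (mAEC), the cell type that lines large arteries. The members were the rows of the deposited gene count table whose mouse symbol named a G2/M cyclin, a mitotic kinase, or a kinetochore or spindle gene. All 40 of these symbols had a row among the 27179 rows, and all 40 passed the low-count filter that 13897 genes passed. RNA sequencing libraries came from 2 groups of 2. Control cells were kept in normal medium, and conditioned medium cells received the supernatant of macrophages positive for the cytokine TNFα and for CD68, a lysosomal protein of macrophages. Neither group carried a genetic change, and the sources used here give neither the length nor the strength of the exposure. The controls had ordinary medium rather than the supernatant of other cells, and both groups stand for 1 cell line.

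A dividing cell first accumulates cyclins that switch on the kinase CDK1, then builds a spindle of microtubules, attaches each chromosome to it at the kinetochore, and pinches itself apart. The genes for these steps are transcribed mainly in late S, G2 and M phase. Their messenger RNA in a culture therefore reflects both the share of cells in those phases and the amount per cell. In these bulk libraries fewer cycling cells and less of each transcript per cycling cell cannot be told apart. The resting endothelium of an artery divides rarely, whereas endothelial cells in culture proliferate.

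Library totals ranged from 13815695 to 18005840 counts, and the smallest count of any member in any library was 113. Markers of the labelled cell type were present. Of 14 endothelial genes 13 passed the count filter, with Pecam1 and Cdh5 the most abundant of the list. Of these 13, 3 rose and 2 fell at an edgeR adjusted p under 0.05, or 38.5%, against 16.8% of all genes tested. The log2 fold change was above 0 in 11 of the 13, and in 50.1% of all genes. Both treated libraries lay above both controls in 8 (61.5%, against 28.5% of all) and below both in 2. The summed level of the list was 7235 CPM in each control and 7402 and 7332 CPM in conditioned medium. CPM is the count scaled to a common library size, with TMM factors. Cldn5, a tight junction gene of endothelium, had a single count in the 4 libraries together. Of 12 macrophage and leukocyte markers 3 passed the filter (Cd68, Cd14 and Lyz2), with a summed level for the list of 230.3 and 260.04 CPM in control and 253 and 260.2 CPM in conditioned medium; 0 of the 3 were called. Adgre1, C1qa, C1qb, Mrc1 and Tyrobp were at 0 in every library, and Csf1r, Ptprc, Itgam and Fcgr1 had at most 3 counts in any library. Of 11 smooth muscle and fibroblast markers 4 passed and 1 rose (Pdgfra), and the list summed to 36.2 and 38.8 CPM in control and 43.6 and 44.9 CPM in conditioned medium. The part of these cell markers in the results on mitotic genes was not tested. The libraries are described as biological replicates. Whether they came from separate cultures is not given, so p-values measure the spread between these libraries, which may be technical.

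Promoters of mitotic genes are known for a pair of sequence elements. They are shown here because 22 of the 34 members with a promoter entry held both. The cell cycle genes homology region (CHR), with the core TTTGAA, is bound by the MuvB complex, which represses these genes in resting cells and activates them with B-MYB and FOXM1 in cycling cells. The CCAAT box is bound by the activator NF-Y. RefSeq promoters in GRCm38.p6, the assembly behind mm10, were held for 34 of the 40 members and ran from 250 bases before to 50 bases after each start site, in 37 windows. Ect2, Prc1 and Bub3 had more than 1 window, which overlap in sequence. No entry was held for Aurkb, Ccna2, Cdc25c, Incenp, Kif20a and Tpx2. The windows of 5 members follow, 5′ to 3′ on the gene's strand, with TTTGAA, its variant TTCGAA and CCAAT in capitals on whichever strand they lie (ATTGG is the reverse of CCAAT). Cenpf, Spc25 and Nusap1 were among the members that fell most in conditioned medium, and Bub1b and Ccnb2 among those that were not called.
Cenpf, chr1:189688037-189688336, minus strand: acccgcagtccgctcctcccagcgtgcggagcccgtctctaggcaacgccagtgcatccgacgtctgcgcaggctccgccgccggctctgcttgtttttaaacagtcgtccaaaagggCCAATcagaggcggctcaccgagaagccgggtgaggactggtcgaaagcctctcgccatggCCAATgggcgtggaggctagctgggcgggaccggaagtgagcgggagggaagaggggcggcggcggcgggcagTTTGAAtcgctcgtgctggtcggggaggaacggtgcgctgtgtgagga
Spc25, chr2:69206164-69206463, minus strand: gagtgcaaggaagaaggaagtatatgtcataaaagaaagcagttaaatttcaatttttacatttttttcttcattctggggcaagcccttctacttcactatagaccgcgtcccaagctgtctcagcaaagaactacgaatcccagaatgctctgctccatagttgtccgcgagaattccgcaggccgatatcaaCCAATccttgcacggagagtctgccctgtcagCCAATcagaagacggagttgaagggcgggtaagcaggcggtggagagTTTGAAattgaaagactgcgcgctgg
Nusap1, chr2:119618048-119618347, plus strand: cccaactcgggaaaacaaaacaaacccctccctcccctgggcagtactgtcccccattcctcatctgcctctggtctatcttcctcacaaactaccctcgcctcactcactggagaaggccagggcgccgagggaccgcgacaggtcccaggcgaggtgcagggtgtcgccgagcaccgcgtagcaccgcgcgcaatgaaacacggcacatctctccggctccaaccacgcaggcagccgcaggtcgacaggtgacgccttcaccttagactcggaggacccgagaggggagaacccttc
Bub1b, chr2:118597961-118598260, plus strand: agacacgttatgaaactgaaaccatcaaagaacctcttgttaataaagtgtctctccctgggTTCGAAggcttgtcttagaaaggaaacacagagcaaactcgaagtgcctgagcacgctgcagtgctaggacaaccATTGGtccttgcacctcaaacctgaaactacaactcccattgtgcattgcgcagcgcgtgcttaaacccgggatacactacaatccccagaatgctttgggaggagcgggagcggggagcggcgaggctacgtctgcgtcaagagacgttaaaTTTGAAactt
Ccnb2, chr9:70421505-70421804, minus strand: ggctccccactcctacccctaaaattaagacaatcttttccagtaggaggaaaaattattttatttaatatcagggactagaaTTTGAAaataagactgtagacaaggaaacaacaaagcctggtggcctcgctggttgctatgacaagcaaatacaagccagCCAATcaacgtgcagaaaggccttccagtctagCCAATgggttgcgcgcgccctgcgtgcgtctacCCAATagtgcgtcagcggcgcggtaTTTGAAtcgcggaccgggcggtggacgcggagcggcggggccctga

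In Cenpf the CHR core began 3 bases into the transcript, behind CCAAT boxes that began 132 and 71 bases before the start site. In Spc25 the core began at base 25 of the transcript and the boxes 55 and 23 bases before the start. Ccnb2 had a core at base 5, another 167 bases before the start, and 3 CCAAT boxes between 87 and 21 bases before it. Bub1b held the core at base 41 and the variant 188 bases before the start. The Nusap1 window held none of these letters, which says only that they are not in this window.

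Over all members, TTTGAA was present on either strand in 28 of 37 windows (75.7%), against 17.9% of 32851 promoters of the same length. CCAAT was present in 30 of the 37 (81.1%), against 37.4% of all, and 21 of the 37 held 2 or more CCAAT boxes (56.8%, against 11.7% of all). Both TTTGAA and CCAAT were present in 25 of the 37 (67.6%), against 6.95% of all. The variant TTCGAA was found in 4 windows (10.8%, against 1.56% of all). The E2F sites TTTCGCGC and TTTGGCGC were found in 1 window, that of Cdk1 (2.70%, against 0.813% of all). A single TTTGAA match overlapped a CCAAT match. Of the 35 TTTGAA matches 28 (80.0%) began within 100 bases before the start site or after it, against 41.6% of the matches in all promoters. Among matches with a CCAAT upstream, the median distance between their first bases was 32 bases in the members and 62 bases in all promoters. The distance lay between 20 and 40 bases in 17 of 28 member matches (60.7%) and in 21.6% of those in all promoters, a range chosen after the distances were seen. Matches in the overlapping windows of Ect2, Prc1 and Bub3 were counted in each window, so the members' match counts exceed the number of distinct sites.

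The elements were found both in members that fell in conditioned medium and in members that were not called. TTTGAA was held by 10 of 12 members that fell and had an entry, and by 15 of 22 that were not called. CCAAT was held by 9 of the 12 and by 18 of the 22. At least 2 CCAAT boxes were held by 5 of the 12 and by 14 of the 22, a difference that was not tested. These are matches of letters and were not tested as binding sites.

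**Figure D1:**
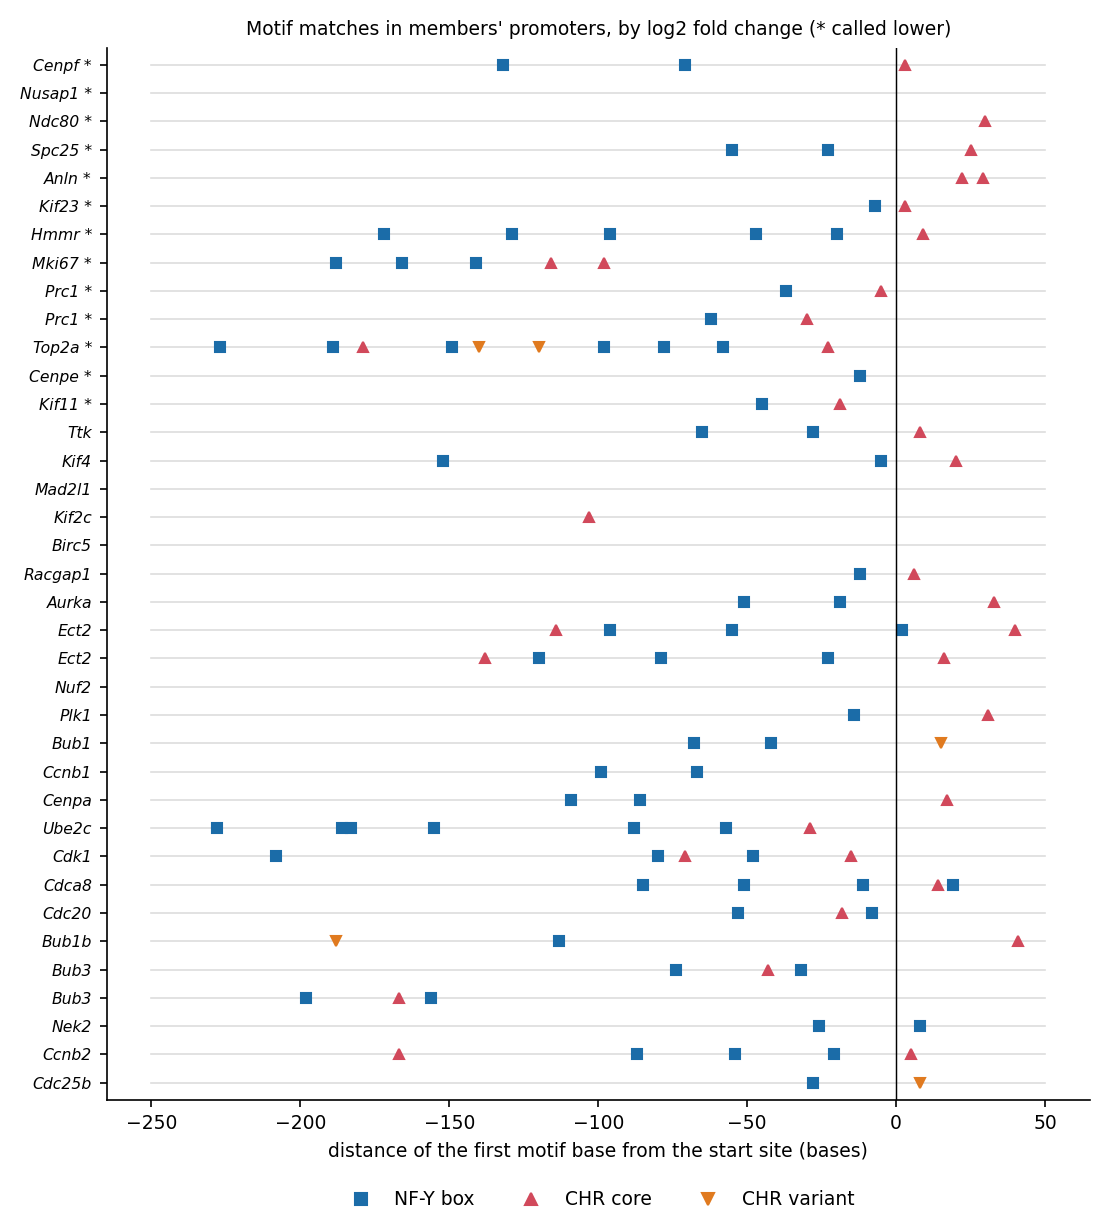
Each line is a promoter window of a member, from 250 bases before to 50 bases after the start site (horizontal axis, bases), ordered by log2 fold change with the largest fall at the top; symbols mark the first base of each match and asterisks the members called lower. Upward triangles (CHR core, TTTGAA) lie mostly near the start site, and downward triangles mark the variant TTCGAA. Of the 37 windows 25 hold both an upward triangle and a square (NF-Y box, CCAAT). They are found both among the 12 members that fell and among the 22 that were not called.

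The mitotic genes were lower in conditioned medium, by small amounts. Of the 40 members 14 fell and 0 rose by edgeR's quasi-likelihood test at an adjusted p under 0.05, where 8.23% of the 13897 genes tested were lower, 8.53% were higher and 16.8% were called in all. The share of members that fell was 35.0%. The genes tested were not matched to the members in abundance, so this comparison of shares does not allow for count. At an unadjusted p under 0.05 the same test gave 21 members lower and 1 higher, Cdc25b. The largest p among them was that of Ttk (0.0474, edgeR), which ranked 4044 among all genes tested, so many other genes passed it too. DESeq2 gave 10 lower and 0 higher, beside 437 lower and 467 higher over all genes tested. For limma-voom these were 14 and 0, beside 1145 and 1180. The largest fall was 1.33-fold, in Cenpf, the smallest among those called was 1.12-fold, in Kif11, and 0 reached 1.5-fold. The median log2 fold change of the 40 was -0.14, a level 8.95% lower, against 0.00037 over all genes tested. In 36 of the 40 the log2 fold change was below 0, against 6933 of the 13897.

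Both conditioned medium libraries lay below both controls in 29 of the 40 members (72.5%), as in 28.8% of all genes tested, and above both controls in 2, Ccnb2 and Cdc25b, as in 28.5% of all. The groups thus did not overlap in 31 members (77.5%), against 57.2% of all genes tested, and overlapped in 9. Summed over the members, the level was 4709 and 4639 CPM in control and 4139 and 4087 CPM in conditioned medium. Mki67, Top2a and Anln made up 36.3% of the control sum. Without them the sums were 3010 and 2947 CPM against 2680 and 2644 CPM, so that the order of the groups did not rest on these 3 abundant genes. The 26 members that were not called summed to 1602 and 1604 CPM in control and 1537 and 1506 CPM in conditioned medium, and 22 of them had a log2 fold change below 0. Within a group the libraries differed from each other by a median of 0.05 log2 units in control and 0.06 in conditioned medium, and by at most 0.20 (Cdc25c) and 0.25 (Cdc20).

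**Figure D2:**
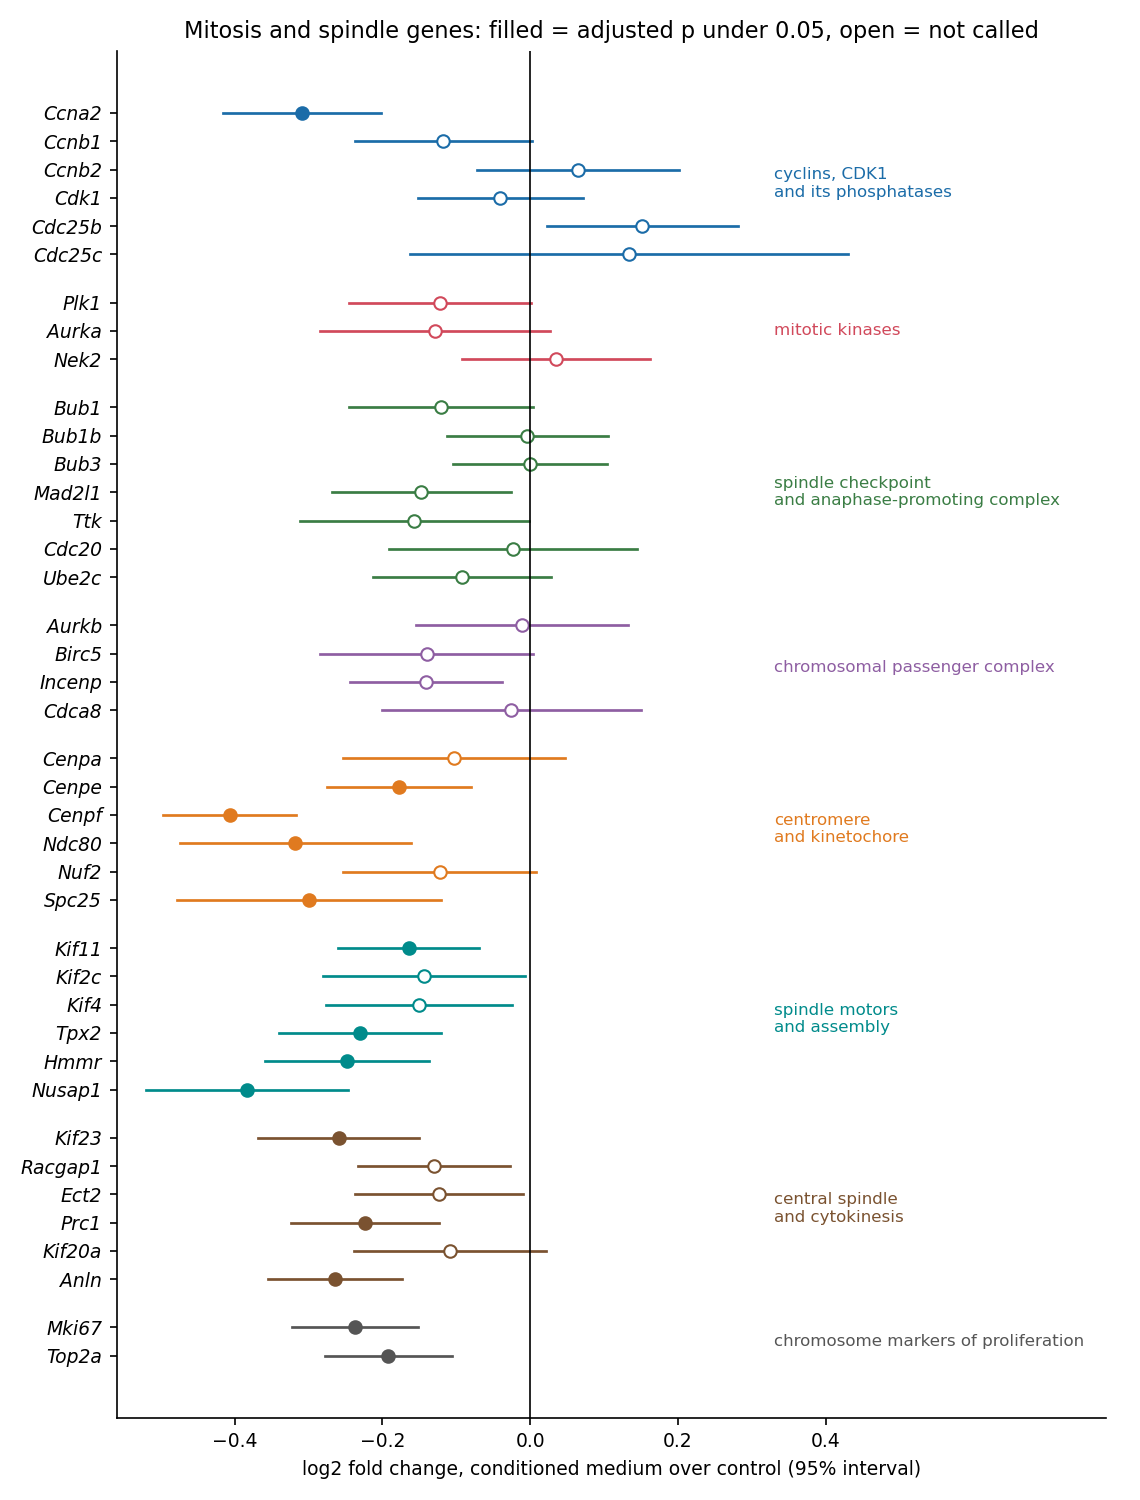
The log2 fold change of each member, conditioned medium over control (horizontal axis), is drawn with its 95% interval and grouped by role; filled points were called at an adjusted p under 0.05 and open points were not. The 14 filled points all lie left of 0, and they are in the kinetochore, spindle, cytokinesis and chromosome groups except for Ccna2. The groups without a filled point hold 3, 7 and 4 genes, where 16.8% of all genes tested were called.

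Most calls were among the abundant members. Of the 20 members with the highest mean counts 11 were called. Of the other 20, which had mean counts of 937 or less, 3 were (Ndc80, Spc25 and Nusap1). Over all genes tested, at any count, 16.8% were called and 8.23% were lower. Those genes were not matched to the members in abundance, so members and background were not compared at equal counts. The median log2 fold change was -0.17 in the first 20 and -0.12 in the other 20. Standard errors (SE) ran from 0.04 in Mki67 to 0.14 in Cdc25c. At this depth a fall of the size of Kif11's (-0.16) passed at a mean count of 2219, while Ttk, at -0.16 with a mean count of 518, did not (edgeR adjusted p = 0.163). Members that were not called are therefore given with 95% intervals of the log2 fold change or with their adjusted p.

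**Figure D3:**
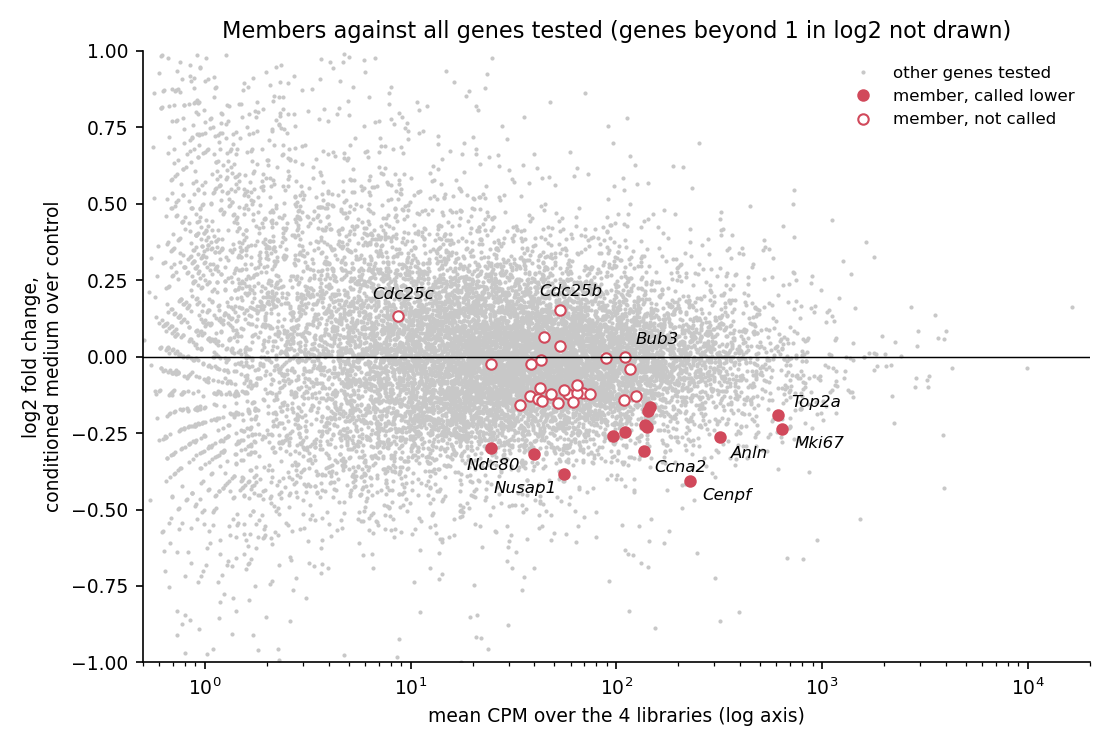
Log2 fold change (vertical axis) is plotted against the mean CPM of the 4 libraries (horizontal axis, log scale) for 13708 genes tested, leaving out 189 that changed by more than 1 log2 unit, with the 40 members in red. The 14 members called lower (filled) include the most abundant members, Mki67 and Top2a, and lie between -0.41 and -0.16.

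Among the cyclins and the CDK1 switch, Ccna2 fell and 5 of 6 members were not called, with a median log2 fold change of 0.012 and a range of -0.31 to 0.15. Cyclin A2, which partners CDK2 in S phase and CDK1 in G2, is encoded by Ccna2 (chromosome 3, 36564865 to 36573038 in mm10). Its level was 158 and 145 CPM in control and 124 and 120 CPM in conditioned medium, with no overlap. The log2 fold change was -0.31 ± 0.05 (SE; edgeR adjusted p = 2.26e-04), a level 19.3% lower. Of the exonic bases of Ccna2 10.4% lie opposite exons of Exosc9, an exosome subunit gene, and reads there cannot be assigned without strand. Exosc9 itself fell, from 80.5 and 73.6 to 62.4 and 59.2 CPM (edgeR adjusted p = 3.76e-04), and its part in the Ccna2 value was not tested.

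The B-type cyclins, which drive entry into mitosis, did not pass the test. Ccnb1 was at 74.2 and 69.1 CPM in control and 64.9 and 67.1 CPM in conditioned medium, a log2 fold change of -0.12 with a 95% interval of -0.24 to 0.0024. Ccnb2 was at 43.5 and 43.8 against 44.2 and 46.9 CPM, with an interval of -0.07 to 0.20. Cdk1, their kinase, was at 121 and 114 against 119 and 109.8 CPM, overlapping between the groups (interval -0.15 to 0.07). The difference between the change of Ccna2 and those of the other cyclins was not tested.

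The phosphatase genes had the highest log2 fold changes of the 40 members. Cdc25b, whose product removes the inhibitory phosphates from CDK1 early in G2/M, was at 49.98 and 50.6 CPM in control and 57.9 and 54.1 CPM in conditioned medium. Both treated libraries were thus above both controls, and its log2 fold change of 0.15 ± 0.06 missed the threshold (edgeR adjusted p = 0.101). Cdc25c, which acts with it at mitotic entry, was the least abundant member, at 7.65 and 8.83 against 9.38 and 8.76 CPM, with a wide interval of -0.16 to 0.43.

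None of the 3 mitotic kinases of the centrosome and spindle poles was called by edgeR, DESeq2 or limma-voom, and 0 had an unadjusted p under 0.05. With 16.8% of all genes tested called by edgeR, 0 of 3 does not set these kinases apart. Plk1, a kinase with roles from centrosome maturation to cytokinesis, was at 61.6 and 60.3 CPM in control and 57.4 and 54.7 CPM in conditioned medium (interval -0.25 to 0.00062). Aurka, which encodes Aurora A, was at 39.2 and 40.4 against 33.9 and 38.5 CPM (interval -0.28 to 0.03). Nek2, a kinase that splits the centrosomes, was at 52.1 and 52.7 against 55.1 and 52.4 CPM (interval -0.09 to 0.16), with overlapping groups.

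The spindle assembly checkpoint holds back the anaphase-promoting complex (APC/C) until every kinetochore is attached. Of its 7 genes here, with the APC/C genes, 0 passed the adjusted threshold in edgeR, DESeq2 or limma-voom, and 2 (Mad2l1 and Ttk) were lower at an unadjusted p under 0.05. Over all genes tested 16.8% were called by edgeR, so 0 of 7 alone shows little. At least 4044 of the 13897 genes had an unadjusted edgeR p under 0.05, so 2 of 7 shows little either. The values of 2 checkpoint genes were nearly equal between the groups. Bub3 was at 109 and 113 CPM in control and 108 and 113 CPM in conditioned medium, with an interval of -0.10 to 0.10. Bub1b, which encodes BubR1, was at 90.3 and 88.2 against 91.1 and 87.2 CPM, with an interval of -0.11 to 0.11. The intervals of this pair allow a change of up to 0.11 log2 units in either direction.

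The other checkpoint genes had lower levels in both treated libraries. Mad2l1, encoding MAD2, was at 66.0 and 62.8 CPM in control and 57.5 and 58.7 CPM in conditioned medium (log2 fold change -0.15 ± 0.06; edgeR adjusted p = 0.0905). Ttk, the checkpoint kinase MPS1, was at 37.1 and 34.4 against 32.5 and 31.7 CPM. Bub1, a kinase that recruits the checkpoint to kinetochores, was at 65.6 and 69.1 against 64.4 and 59.7 CPM (interval -0.24 to 0.0040). Of the genes that carry out the exit from mitosis, Ube2c, the ubiquitin-conjugating enzyme of the APC/C, was at 64.5 and 69.0 CPM in control and 62.7 and 62.6 CPM in conditioned medium (interval -0.21 to 0.03). Cdc20, its activator, was at 39.6 and 37.4 against 41.5 and 34.8 CPM, with the treated libraries on either side of the controls.

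The chromosomal passenger complex corrects faulty attachments and later steers cytokinesis. Of its 4 genes 0 passed the adjusted threshold in edgeR, DESeq2 or limma-voom, and 1 (Incenp) was lower at an unadjusted p under 0.05. As 16.8% of all genes tested were called by edgeR, 0 of 4 likewise shows little. With at least 4044 of the 13897 genes at an unadjusted edgeR p under 0.05, so does 1 of 4. Incenp, the scaffold, was at 115 and 112 CPM in control and 102 and 105 CPM in conditioned medium (log2 fold change -0.14 ± 0.05; edgeR adjusted p = 0.0561), just outside the threshold. Birc5, encoding survivin, was at 42.3 and 45.0 against 40.9 and 38.4 CPM (interval -0.28 to 0.0036). The catalytic subunit gene Aurkb was at 41.9 and 44.2 against 44.5 and 41.2 CPM and Cdca8, encoding borealin, at 24.8 in each control library against 24.9 and 23.9 CPM. In these last genes the groups overlapped, with intervals of -0.15 to 0.13 and -0.20 to 0.15.

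Kinetochore genes held the largest fall of the 40. Of 6 centromere and kinetochore members 4 fell and 0 rose, where 8.23% of all genes tested were lower and 8.53% higher, and the median log2 fold change of the 6 was -0.24. Cenpf encodes a very large coiled-coil protein of the outer kinetochore that builds up in G2 (chromosome 1, 189640606 to 189688107 in mm10). It stood at 261 and 258 CPM in control and at 195 and 196 CPM in conditioned medium. The gap between the groups was far wider than the differences within them, and the log2 fold change was -0.41 ± 0.04 (SE; edgeR adjusted p = 1.58e-06), a level 24.6% lower. By p-value Cenpf ranked 79 among all genes tested, the highest rank of any member. Cenpe, a kinesin that carries chromosomes to the spindle equator, was at 153 and 149.9 CPM in control and 136 and 132 CPM in conditioned medium, which do not overlap (-0.18 ± 0.05; edgeR adjusted p = 0.0118).

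The NDC80 complex binds the microtubule end. Its gene Ndc80 (chromosome 17, 71496100 to 71526857) was at 46.9 and 41.3 CPM in control and 34.1 and 36.5 CPM in conditioned medium, and Spc25 (chromosome 2, 69193895 to 69206213) at 27.8 and 26.8 against 21.1 and 23.1 CPM. Both fell, with log2 fold changes of -0.32 ± 0.08 (edgeR adjusted p = 0.00543) and -0.30 ± 0.09 (edgeR adjusted p = 0.0197). Their partner Nuf2 was at 51.0 and 49.5 against 46.9 and 45.6 CPM and was not called (interval -0.25 to 0.0082). Whether the partners differed from each other was not tested. Cenpa, the histone variant that marks the centromere, overlapped between the groups, at 42.1 and 45.9 against 38.7 and 42.9 CPM. DESeq2 did not call Cenpe, Ndc80 or Spc25 (adjusted p = 0.120, 0.0798 and 0.224). Without conditioned medium replicate 1 their adjusted p was 0.108, 0.130 and 0.227, and without replicate 2 of that group 0.247, 0.0684 and 0.0959, the ranges over all 14 alternatives reaching down to 0.00124, 8.31e-06 and 0.00765.

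In all 6 genes of spindle motors and spindle assembly both treated libraries lay below both controls, as in 28.8% of all genes tested, and 4 of the 6 fell, against 8.23% of all genes. Nusap1 encodes a protein that bundles microtubules around chromosomes (chromosome 2, 119618298 to 119650165). It was at 67.1 and 59.3 CPM in control and 48.1 and 48.8 CPM in conditioned medium, or -0.38 ± 0.07 on the log2 scale (edgeR adjusted p = 3.16e-04). The controls of Nusap1 stood further apart than the treated libraries did, and still did not reach them. Without control replicate 1 its log2 fold change was -0.29 and without control replicate 2 it was -0.47. Opposite its exons, over 4.25% of the exonic bases, lies Oip5, at 13.82 and 10.7 against 12.7 and 10.3 CPM (edgeR adjusted p = 0.671).

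Hmmr, a spindle protein first described as a hyaluronan receptor, fell from 126 and 114 to 101 and 101 CPM (-0.25 ± 0.05; edgeR adjusted p = 0.00264). Tpx2, the activator of Aurora A at the spindle, fell from 159 and 147 to 136 and 125 CPM (-0.23 ± 0.05; edgeR adjusted p = 0.00414). Kif11, the motor that pushes the spindle poles apart, had the closest replicates of the group, at 153 and 154 CPM in control and 137 in each treated library (-0.16 ± 0.05; edgeR adjusted p = 0.0167). In each of these genes both treated libraries lay below both controls. Kif4, a chromosome-bound motor, at 54.6 in each control against 48.8 and 49.5 CPM, and Kif2c, which takes microtubule ends apart, at 44.9 and 46.3 against 42.0 and 40.7 CPM, were not called (edgeR adjusted p = 0.0958 and 0.145). Kif11 lost its call in DESeq2 (adjusted p = 0.156), Kif11 and Hmmr without conditioned medium replicate 1 (0.189 and 0.0734), and Kif11, Hmmr and Tpx2 without replicate 2 of that group (0.206, 0.108 and 0.225). The lowest adjusted p over the alternatives was 0.00683 for Kif11, 1.67e-07 for Hmmr and 2.38e-07 for Tpx2.

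In the genes of the central spindle and of cytokinesis both treated libraries lay below both controls in 6 of 6 cases (28.8% of all genes tested), and 3 of the 6 fell (8.23% of all genes). Anln encodes anillin, the scaffold of the contractile ring (chromosome 9, 22331214 to 22389211). Its level went from 352 and 347 CPM to 297 and 285 CPM, or -0.26 ± 0.04 on the log2 scale (edgeR adjusted p = 2.11e-04). Kif23, the motor subunit of the centralspindlin complex, fell from 105 and 104 to 84.7 and 90.4 CPM (-0.26 ± 0.05; edgeR adjusted p = 0.00148). Racgap1, the other centralspindlin gene, was at 128 and 133 against 122 and 117 CPM, and its log2 fold change of -0.13 ± 0.05 missed the threshold (edgeR adjusted p = 0.0760). Prc1, which cross-links the microtubules of the midzone, fell from 152 and 144 to 126 and 128 CPM (-0.22 ± 0.05; edgeR adjusted p = 0.00264). Exons of Rccd1 lie opposite 21.8% of the exonic bases of Prc1, and Rccd1 had 33 to 42 counts in each library.

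The remaining cytokinesis genes were not called. Ect2, which activates the GTPase RhoA at the cleavage site, was at 79.2 and 76.0 CPM in control and 70.8 and 71.5 CPM in conditioned medium (edgeR adjusted p = 0.130). Kif20a, which moves the passenger complex to the midzone, was at 55.9 and 59.1 against 55.5 and 51.5 CPM (edgeR adjusted p = 0.259). Exons of Cdc23 lie opposite 31.8% of its exonic bases, and lesser overlaps of this kind affect Ube2c (22.8%, Tnnc2) and Kif4 (15.1%, Pdzd11). Without conditioned medium replicate 1, Kif23 and Prc1 lost their calls (adjusted p = 0.0937 and 0.100), and without replicate 2 of that group Anln and Prc1 did (0.0777 and 0.0873). The lowest adjusted p over the alternatives was 5.91e-05 for Kif23, 4.61e-06 for Prc1 and 6.54e-11 for Anln.

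The widely used markers of proliferation both fell with closely agreeing libraries. Mki67 encodes Ki-67, which coats mitotic chromosomes and is absent from resting cells (chromosome 7, 135689784 to 135716450). It went from 690 and 693 CPM to 587 and 587 CPM, or -0.24 ± 0.04 on the log2 scale (edgeR adjusted p = 3.58e-04), a level 15.2% lower. Top2a, the topoisomerase that untangles sister chromatids (chromosome 11, 98992947 to 99024199), went from 657 and 652 CPM to 575 and 572 CPM (-0.19 ± 0.04; edgeR adjusted p = 0.00251). Per kilobase of exon in the GENCODE M21 annotation, Top2a was the most abundant member in control, at 125 CPM per kb, followed by Anln at 75.9 and Mki67 at 68.7. Cdc25c was the least abundant on this scale, at 4.24 CPM per kb. Neither marker was called without conditioned medium replicate 1 (adjusted p = 0.0674 and 0.132) or without replicate 2 (0.0828 and 0.166), where the lowest over the alternatives was 2.57e-11 and 1.28e-07.

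**Figure D4:**
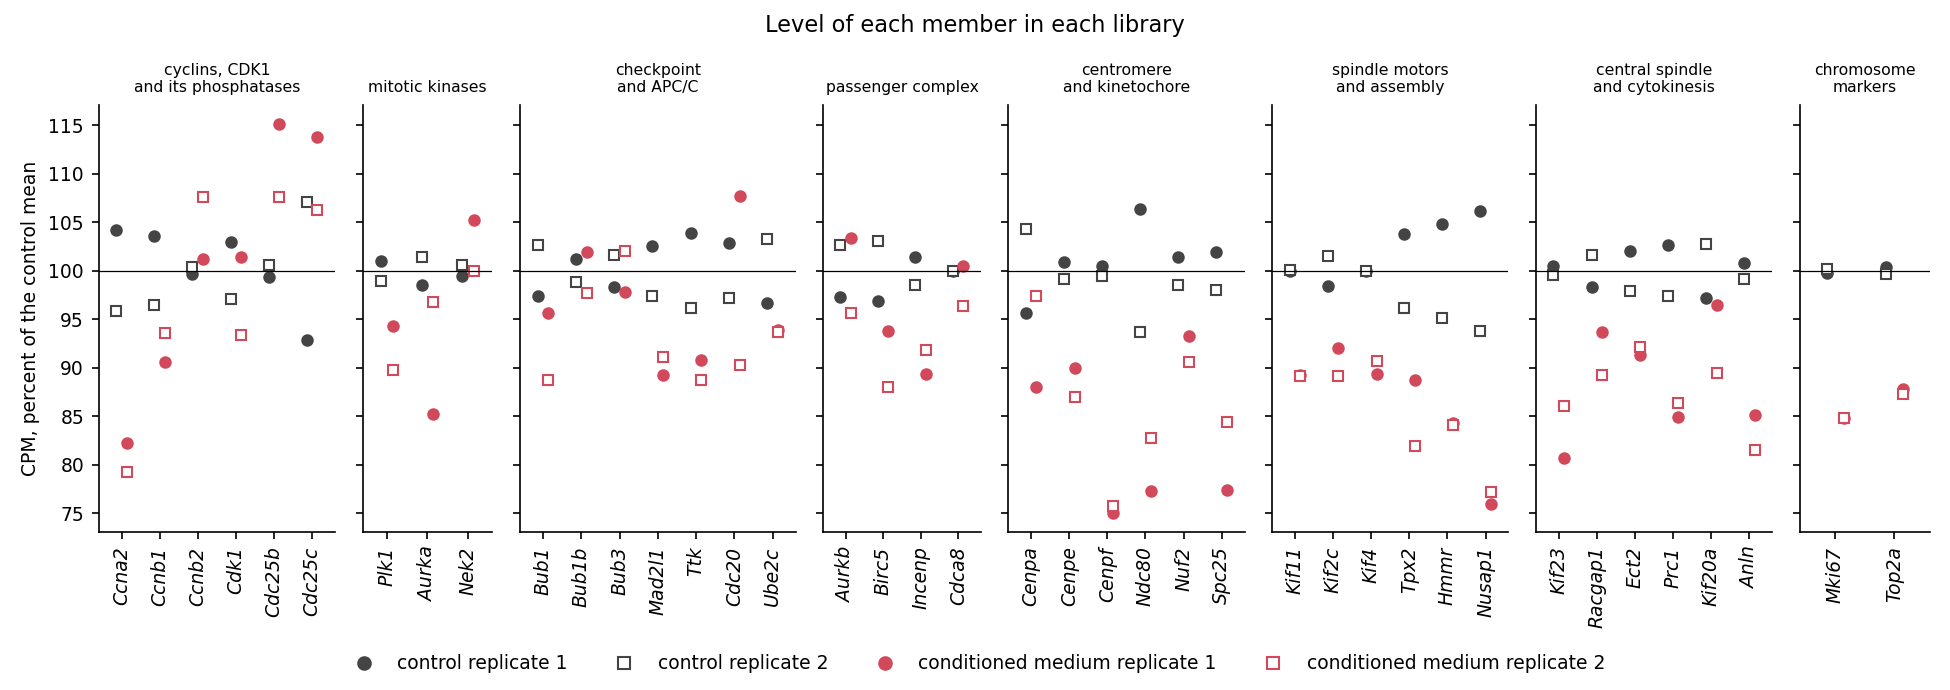
Each member's CPM in each of the 4 libraries is given as a percent of its control mean (vertical axis), with controls in grey, conditioned medium in red and the replicates as circles and squares. Red points lie below grey points in 29 of the 40 genes, lowest for Cenpf and Nusap1, and above them in Ccnb2 and Cdc25b.

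How far the calls depended on single libraries was read from fits that left out each in turn. Without control replicate 1 or 2, which left 1 control library, 33 and 34 of the 40 members had a log2 fold change below 0. All 14 members called with every library kept were among them. Without conditioned medium replicate 1, 5 of the 14 remained (Cenpf, Nusap1, Ccna2, Tpx2 and Anln), and without replicate 2 of that group 3 did (Cenpf, Nusap1 and Kif23). The spread then came from the control pair alone, and the genes called in the whole table fell to 808 and 569, or 5.71% and 4.03% of those tested. The median log2 fold change of the 40 was -0.16 and -0.14 in these 2 fits. Cenpf and Nusap1 were called in all 14 alternatives, with an adjusted p of at most 0.00524 and 0.0349. Ccna2 missed the threshold in 1 of them, without conditioned medium replicate 2 (adjusted p = 0.0572, the others reaching down to 1.23e-11). No alternative called a member higher.

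Further lists of cell cycle genes were drawn up from textbook roles, with earlier results of these data known. Their medians also lay below 0, with more falls than rises. Of 51 other spindle, motor and cytokinesis genes tested 15 fell and 1 rose, with a median log2 fold change of -0.11. The share called was 31.4%, against 16.8% of all genes tested, and the share lower 29.4%, against 8.23%. Fam83d, a spindle adaptor, was at -0.46 ± 0.09 (from 26.9 and 27.0 to 20.9 and 18.6 CPM), Cep55, which organizes the midbody, at -0.35 ± 0.06, and the motor gene Kif15 at -0.32 ± 0.06. Tacc2 was the gene that rose, by 0.15 ± 0.05. Of 33 other kinetochore and centromere genes 5 fell and 0 rose (15.2% called, all of them lower), with a median of -0.08. Over all genes tested 8.23% were lower and 16.8% were called in either direction. Cenpq was at -0.30 ± 0.08, Ska2 at -0.30 ± 0.10, and Hjurp, the chaperone that deposits CENP-A, at -0.20 ± 0.04.

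Genes that hold, release and compact sister chromatids followed. Of 31 genes of the APC/C, separase and cohesin 5 fell and 0 rose (16.1% called, all of them lower), with a median of -0.06. Over all genes tested 8.23% were lower and 16.8% were called in either direction. Esco2, a cohesin acetyltransferase, was at -0.35 ± 0.09, and the cohesin protectors Sgo2a and Sgo1 at -0.31 ± 0.05 and -0.29 ± 0.08. Of 8 condensin genes 3 fell and 0 rose (37.5%, against 8.23% of all genes lower), with a median of -0.09. The 3 were Smc2 (-0.21 ± 0.04), Ncapg2 (-0.16 ± 0.04) and Smc4 (-0.14 ± 0.04).

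Of 24 transcription regulators, the MuvB subunits, Mybl2, Foxm1, NF-Y, E2F factors and pocket proteins, 3 fell and 0 rose, with a median of -0.07. The share called was 12.5%, all lower and resting on 3 genes. Over all genes tested 8.23% were lower and 16.8% were called in either direction. Rbl1, encoding the pocket protein p107, fell from 83.9 and 88.0 to 68.1 and 66.9 CPM (-0.35 ± 0.05; edgeR adjusted p = 1.21e-04). Nfyb, a subunit of NF-Y, fell by 0.28 ± 0.08 and Rb1 by 0.23 ± 0.06. Of 20 mitotic entry switches and inhibitors of cyclin-dependent kinases 5 fell and 1 rose (30.0% called; median -0.06). Gadd45a, a growth arrest gene, was at -0.47 ± 0.06, the inhibitor Cdkn2b at -0.25 ± 0.08 and Wee1, the kinase that restrains CDK1, at -0.22 ± 0.05. The inhibitor gene Cdkn1a, named after its value was seen, was the one that rose, by 0.15 ± 0.05.

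Genes of the earlier step of the cycle, the entry into S phase and DNA replication, were also lower where called, with 1 exception (Cdt1). Of 55 G1/S and DNA replication genes 16 fell and 1 rose, with a median of -0.10. The share called was 30.9%, against 16.8% of all genes, and the share lower 29.1%, against 8.23%. Among the falls were the cyclin gene Ccne2 at -0.41 ± 0.09 and the DNA polymerase gene Pola1 at -0.37 ± 0.06. Each of these lists lost most of its calls when a conditioned medium library was left out: the spindle list had 5 falls without replicate 1 and 1 without replicate 2, and the G1/S list 4 in each case, while DESeq2 gave 8 and 7. The lists differ in abundance, and their shares were not tested against each other.

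**Figure D5:**
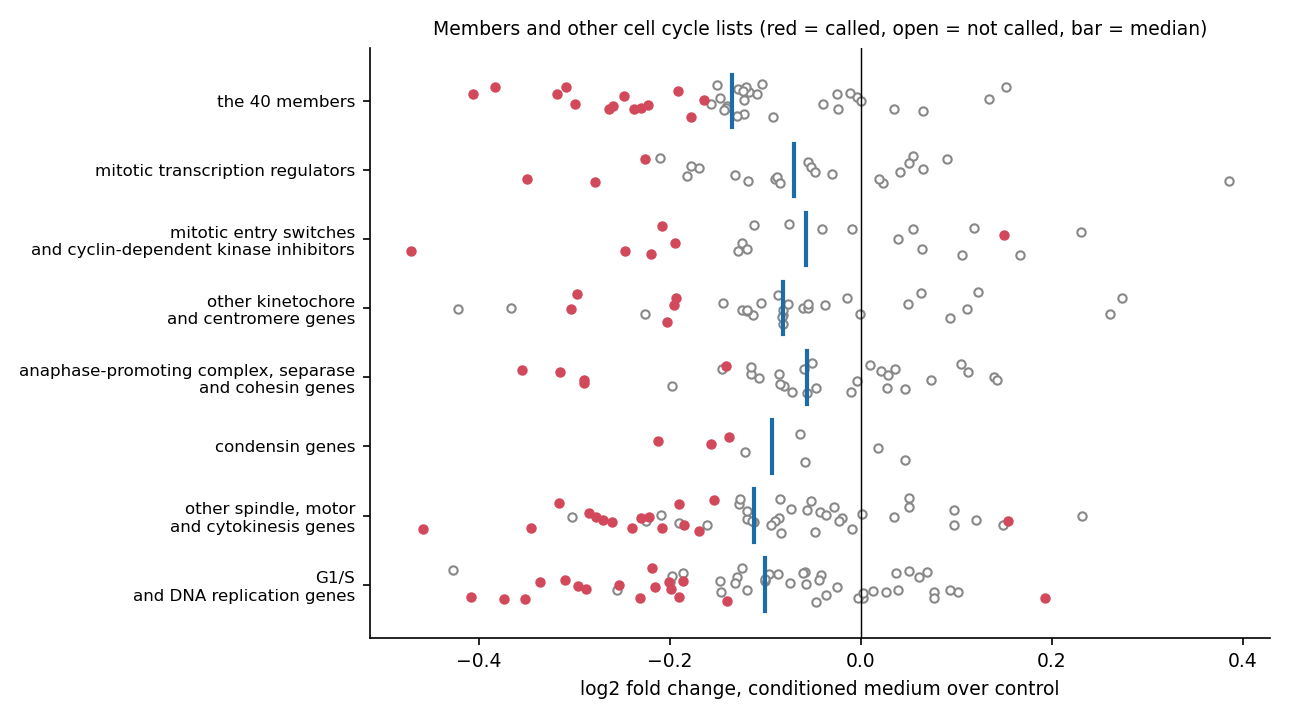
Log2 fold changes (horizontal axis) of the 40 members and of the tested genes in 7 other cell cycle lists are drawn as points, red where called and open where not, with a bar at each median. The bars all lie left of 0, from -0.14 for the members to -0.06 for the APC/C, separase and cohesin list and for the entry switches.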

How the data were processed

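The authors deposited raw counts per gene for 4 libraries made from total RNA with the Illumina TruSeq RNA kit, per the labels. That kit does not mark strand. STAR 2.5.2b, featureCounts, Subread 1.4.6-p1 and mm10 are named in the submitters' processing notes; the sources used here give neither their settings nor the annotation release. Entrez identifiers were matched to RefSeq genes of GRCm38.p6 (25275 of 27179 rows); the 1904 unmatched rows, 6.31% of counts, stayed in the fit.

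The fit used edgeR 4.0.16 (R 4.3.3). Genes passing filterByExpr (minimum count 10, total 15) were scaled by TMM and entered the quasi-likelihood test, which compared the groups with no replicate block and was two-sided. Benjamini-Hochberg adjustment ran over all 13897 genes, and an adjusted p under 0.05 made a call. Residual degrees of freedom were 2, and the common biological coefficient of variation was 3.58%. Each SE is the size of the log2 fold change divided by the root of its F statistic, and 95% intervals use the t distribution of the same test. CPM values are scaled by TMM. Exon lengths and overlaps come from the GENCODE M21 basic set.

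The members and lists were chosen with earlier results of these data known, so no list was tested as a set. All members are named; from each other list the 3 called genes with the largest absolute log2 fold change are named, with Tacc2, Cdkn1a and Cdt1 added after their values were seen; 1 gene of the G1/S list that this rule names is not reported here. Tried besides were 3 other scalings (RLE, upper-quartile, library totals), genes filtered at 1 count in total or at 1 CPM in 2 libraries, DESeq2 1.42.0, limma-voom (limma 3.58.1), a robust spread, a replicate block, counts thinned to 1 depth, and leaving out each library. The procedure was also run on simulated counts drawn with 1 common spread for all genes, a simpler setting than these data. The outcome of that run is not reported here. Intervals cover the spread between libraries, and the lowest member count of 113 limits the precision for single genes.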

Additional observations from a re-analysis of the deposited data

How the results depend on the processing

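Over the 14 alternatives, 3 to 17 members were called, all of them lower, and 31 to 36 had a log2 fold change below 0. The 14 calls were kept under every alternative scaling, both filters, the robust spread, limma-voom and thinned counts. The median log2 fold change of the members was -0.12 with upper-quartile scaling, which moved the median of all genes to 0.015, and ran from -0.16 to -0.14 with a library left out. The members called ranged from 3 to 17 with a library left out, and the genes called in the whole table from 569 to 3107. DESeq2 called 904 genes in all.

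Same-numbered libraries did not deviate together over 10662 genes (correlation of their deviations -0.04). With 2 libraries per group, each group gives a single deviation per gene, so this cannot exclude a pairing. With the replicate block 2671 genes were called, against 2330 without it, and 14 members, the same 14. The members' median was -0.14.

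The sign turned in members near 0, without a call in any case: Bub3 with upper-quartile scaling (0.015), library totals (0.0073), no filter (0.0018), a 1 CPM filter (0.0020), limma-voom (3.89e-04), thinned counts (0.020), without control replicate 2 (0.025) or conditioned medium replicate 1 (0.029); Bub1b with upper-quartile scaling (0.011) and library totals (0.0040), without control replicate 1 (0.012) or conditioned medium replicate 2 (0.028); Aurkb with upper-quartile scaling (0.0036), without control replicate 2 (0.026) or conditioned medium replicate 2 (0.047). Cdca8 turned with thinned counts (0.017) and without conditioned medium replicate 2 (0.0059), and Cdk1 (9.0e-04 and 0.020) and Cdc20 (0.014 and 0.11) without control replicate 1 or conditioned medium replicate 2. Calls were gained by Incenp with the robust spread, by Incenp, Ccnb1 and Mad2l1 without control replicate 2 and by Racgap1 without control replicate 1. The other lists had from 0 to 20 calls over the alternatives. With a library left out, the log2 fold change ran from -0.098 to 0.020 in Cdk1, -0.15 to 0.11 in Cdc20, -0.064 to 0.047 in Aurkb, -0.033 to 0.028 in Bub1b, -0.033 to 0.029 in Bub3 and -0.052 to 0.0059 in Cdca8. The cause of these changes was not tested.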
